A study of Mus musculus with 12 samples.

Results

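Mitochondria burn fatty acids and pyruvate through 2 linked routes, and 40 genes that encode them were followed here in mouse bone marrow-derived macrophages (BMDMs), macrophages grown from bone marrow in culture. The genes were chosen by name for their function, with earlier results of these data known. They comprise 20 genes of fatty acid oxidation and 20 genes of the tricarboxylic acid (TCA) cycle with its pyruvate entry and its itaconate branch, out of 35275 genes listed in the count tables. All 40 passed the minimum of a mean of 10 counts over the 12 libraries, and all 40 were among the 12849 genes tested. All groups were wildtype BMDMs cultured over 6 days in M-CSF and IL-4, each at 20 ng/ml, plus IL-10 at 10 ng/ml, which are cytokines that favor an alternatively activated (M2) state. The 3 groups had 4 libraries each and were given DMSO, the solvent, olaparib, an inhibitor of poly(ADP-ribose) polymerases, or methyl-nicotinamide (MNA), a methylated derivative of nicotinamide. Per the methods, bone marrow donors were 6 to 10 weeks old and of either sex. The doses of olaparib and MNA in these cultures, and the strain and sex of the donor of each library, were not found in the sources used here.

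In fatty acid oxidation, long-chain fatty acids enter the mitochondrion as carnitine esters and are then shortened in a repeating spiral of dehydrogenation, hydration, dehydrogenation and cleavage that yields acetyl-CoA. The TCA cycle oxidizes acetyl-CoA to carbon dioxide and passes the electrons to the respiratory chain. In macrophages, oxidative metabolism of this kind is a known feature of the alternatively activated state, whereas inflammatory activation is known for a cycle that is diverted at isocitrate and for the production of itaconate.

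Total gene counts per library ranged from 21146291 to 31446849 in the DMSO group, from 24947905 to 28766984 in the olaparib group and from 24076240 to 27501216 in the MNA group, so that depth overlapped between the groups. Mitochondrially encoded genes took 1.04 to 1.35% of the counts with DMSO, 1.59 to 1.82% with olaparib, 1.14% in MNA replicate 2 and 1.61 to 2.25% in the other MNA libraries, so that this share moved with the groups, and its part in the results below was not tested. On the first 2 principal components of all tested genes, which held 49.8% and 24.9% of the variance, MNA replicate 2 lay with the DMSO libraries. It also did so for the 40 genes: 26 of them lay within the range of the 4 DMSO libraries in MNA replicate 2, against 8 or 9 in the other MNA libraries. The library was kept as labeled, and calls of the 40 genes that change without it are given with their values. The 6 macrophage markers, of which Fcgr1 lay at most at 2.30 CPM (counts scaled to a common library size), summed to 2238 to 2467 CPM with DMSO, 3335 to 3649 with olaparib, 2306 in MNA replicate 2 and 3534 to 3844 in the other MNA libraries. They did not move alike with olaparib: 3 rose and 1, Cd68, fell, from 1094 to 1308 CPM with DMSO to 812 to 868 CPM. The 4 markers of alternative activation summed to 32841 to 53257 CPM with DMSO, 18803 to 30325 with olaparib, 31719 in MNA replicate 2 and 941 to 1401 in the other MNA libraries, and Chil3 made up most of each sum. None of these 4 was called with olaparib, where Arg1 (399 to 1029 CPM) and Retnla (750 to 1868 CPM) overlapped their DMSO levels (434 to 690 and 610 to 1137 CPM) and Chil3 lay below its own, and 2 fell with MNA. Of the markers of other cells, neutrophil genes (3 of 7 tested) summed to at most 8.86 CPM except in 1 MNA library at 56.4 CPM, erythroid genes (0 of 4 tested) to at most 3.70 CPM except in that library at 54.3 CPM, and adipocyte genes (1 of 4 tested) to at most 2.98 CPM in any library. The eosinophil list (1 of 3 tested) summed to 30.5 to 58.2 CPM with olaparib against at most 9.99 CPM elsewhere, and this was Siglecf, while Prg2 and Epx were at or near 0. B cell, T or NK cell, mast cell and stromal genes summed to at most 3.62 CPM. The dendritic cell genes, among which Flt3 and Siglech were at or near 0, summed to 103 to 380 CPM over the 3 groups. Most of each of these sums was Ccl22 (90.9 to 364 CPM), with Zbtb46 at 11.0 to 19.7 CPM and Xcr1 at most at 2.19 CPM. The part of these cell markers in the results below was not tested, and in bulk RNA a change in the number of cells of a type and a change in RNA per cell cannot be told apart.

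The level of a gene is given as CPM of the library after TMM normalization, an edgeR scaling that aligns the bulk of the genes between libraries. A gene was called when the Benjamini-Hochberg adjusted p of edgeR's quasi-likelihood test, adjusted over all 12849 genes, was under 0.05, and all adjusted p-values below are of this kind unless another tool is named. A log2 fold change is given with its standard error (SE).

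Upstream sequences are shown for genes with the patterns described below. Acod1 and Ehhadh were called higher with both treatments, Eci2 was called in opposite directions and Etfa was called lower with MNA. Hadha and Hadhb start back to back on either side of 1 stretch. The MNA calls of Acod1, Ehhadh, Eci2 (adjusted p = 0.0489) and Etfa were each lost in some alternative fits, as given below. The sequences are RefSeq promoter windows on GRCm38.p6, of which only the bases outside every exon in GENCODE are printed, 5′ to 3′ on the strand of the gene. Capitals mark a match to 1 of the searched motifs, and lower case alone means no match.
Acod1 (chr14:103046762-103046976, + strand): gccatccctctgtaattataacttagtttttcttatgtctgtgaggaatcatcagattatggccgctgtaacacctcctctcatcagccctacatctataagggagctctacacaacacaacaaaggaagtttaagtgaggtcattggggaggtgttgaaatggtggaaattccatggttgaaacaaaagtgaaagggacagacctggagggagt
Ehhadh (chr16:21787835-21788084, - strand): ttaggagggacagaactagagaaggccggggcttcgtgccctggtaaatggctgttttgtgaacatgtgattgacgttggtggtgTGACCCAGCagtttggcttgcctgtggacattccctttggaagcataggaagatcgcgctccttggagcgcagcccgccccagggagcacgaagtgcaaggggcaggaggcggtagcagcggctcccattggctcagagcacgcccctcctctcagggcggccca
Eci2 (chr13:34994282-34994394, - strand): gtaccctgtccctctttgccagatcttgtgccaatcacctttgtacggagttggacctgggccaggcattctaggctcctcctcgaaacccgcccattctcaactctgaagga
Etfa (chr9:55512244-55512493, - strand): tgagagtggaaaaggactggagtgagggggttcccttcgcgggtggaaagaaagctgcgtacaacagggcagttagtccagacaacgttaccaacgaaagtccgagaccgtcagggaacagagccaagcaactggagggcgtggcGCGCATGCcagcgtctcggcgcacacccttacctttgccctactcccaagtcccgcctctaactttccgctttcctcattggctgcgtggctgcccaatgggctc
Hadha and Hadhb (chr5:30155163-30155247, + strand, the strand of Hadhb): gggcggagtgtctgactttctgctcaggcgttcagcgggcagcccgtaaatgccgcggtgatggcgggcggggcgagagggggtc

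Promoter windows of 250 bases before and 50 after a start were found for 36 of the 40 genes (43 windows) and searched on both strands for letters of 5 elements. The estrogen-related receptor element TCAAGGTCA, a motif of oxidative gene promoters, occurred in 0 of the 36 genes and in 0.423% of 32851 windows of all genes, and the PPAR element (2 direct repeats of AGGTCA with 1 base between them, where AGGTCA is also the end of the first motif) in 0 and in 0.0396%. The core of the NRF1 motif, GCATGCGC, occurred in 4 genes (Acadm, Etfa, Etfdh and Ogdh), in 5 of the 43 windows and in 2.71% of all windows. The antioxidant element TGACNNNGC occurred in 6 genes (Dlst, Ehhadh, Idh3g, Mdh1, Pdhb and Sucla2), in 6 of the 43 windows and in 12.4% of all windows. The cyclic AMP element TGACGTCA occurred in 2 genes (Mdh2 and Ogdh), in 4 of the 43 windows and in 1.79% of all windows. A match is a stretch of letters and not a shown binding site.

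Per kilobase of the principal transcript, the TCA genes had a median level of 41.3 CPM per kilobase with DMSO (range 0.673 to 181) and the oxidation genes one of 26.8 (range 1.43 to 67.5). Mdh2, mitochondrial malate dehydrogenase, had the highest level at 181 ± 5.88 CPM per kilobase (SD, n = 4), followed by its cytosolic counterpart Mdh1 at 81.3 ± 4.70. Idh1 (69.1 ± 4.78), Cs (68.8 ± 3.80), Etfa (67.5 ± 2.21) and Idh3b (67.1 ± 1.08) came next and differed from each other by less than the SD of Idh1. The lowest were Acod1 (4.46 ± 0.774), Suclg2 (2.97 ± 0.116), Ehhadh (1.43 ± 0.0945) and Pcx (0.673 ± 0.121).

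Olaparib raised 16 of the 40 genes against DMSO and lowered none, where 14.3% of all tested genes were up-regulated and 12.8% down-regulated. Among the 20 TCA genes 11 rose, and among the 20 oxidation genes 5 rose. The 2 genes that lay lower at an unadjusted p under 0.05 were not called, and DESeq2 called 1 gene lower, Eci1. The fold changes of the 16 genes ran from 1.11-fold for Pdha1 to 2.57-fold for Acod1. The median log2 fold change was 0.17 for oxidation genes and 0.18 for TCA genes, and 0.00 for all tested genes. In 24 of the 40 genes the 4 olaparib libraries did not overlap the 4 DMSO libraries (21 higher and 3 lower), where the 2 groups did not overlap in 41% of all tested genes.

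MNA raised 5 of the 40 genes (Acaa1a, Ehhadh, Pcx, Idh2 and Acod1) and lowered 5 (Hadha, Etfa, Eci2, Decr1 and Idh3b), where 16.3% of all tested genes were up-regulated and 12.3% down-regulated. The median log2 fold change was 0.00 for oxidation genes, -0.06 for TCA genes and 0.00 for all tested genes. In 5 of the 40 genes the groups did not overlap, a share close to the 12.4% of all tested genes. Leaving out MNA replicate 2 raised these counts to 12 up-regulated and 12 down-regulated, where 27.2% and 26.9% of 13023 tested genes were called. The genes added to those up-regulated were Cpt1a, Acadl, Acads, Acadvl, Hadh, Cs and Idh1, and those added to the down-regulated were Acadm, Acaa2, Etfb, Eci1, Dlat, Dld and Suclg2. The counts also depended on other libraries, since without any 1 of DMSO replicates 2, 3 and 4 and MNA replicates 1, 3 and 4 at most 2 genes were up-regulated and at most 1 down-regulated. None of the 10 calls held in a fit of the MNA and DMSO libraries alone. The part of oxidation genes among those that fell was 4 of 5, and 8 of 12 without MNA replicate 2. Among those that rose it was 2 of 5, and 7 of 12 without that library, where 20 of the 40 genes are oxidation genes.

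Between the 2 treatments, 13 of the 40 genes were higher with olaparib than with MNA and none lower, where 10.9% of all tested genes were higher and 10.9% lower. One gene lay lower at an unadjusted p under 0.05, and DESeq2 called 0 lower. Of these 13, 9 were TCA genes and 4 oxidation genes. The 2 groups did not overlap in 12 of the 40 genes, all higher with olaparib, where 21.2% of all tested genes did not overlap. Without MNA replicate 2 there were 18 higher (with Acadm, Hadha, Decr1, Dld and Suclg2 added) and 1 lower, Acadl, where 21.5% and 20.7% of all tested genes were called. Without that library the comparison of olaparib with DMSO, which shares its estimate of the spread, had 20 genes higher and 3 lower (Hadha, Eci1 and Decr1), where 22.5% and 21.2% of all tested genes were called. Both comparisons with DMSO use the same 4 DMSO libraries.

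**Figure D1:**
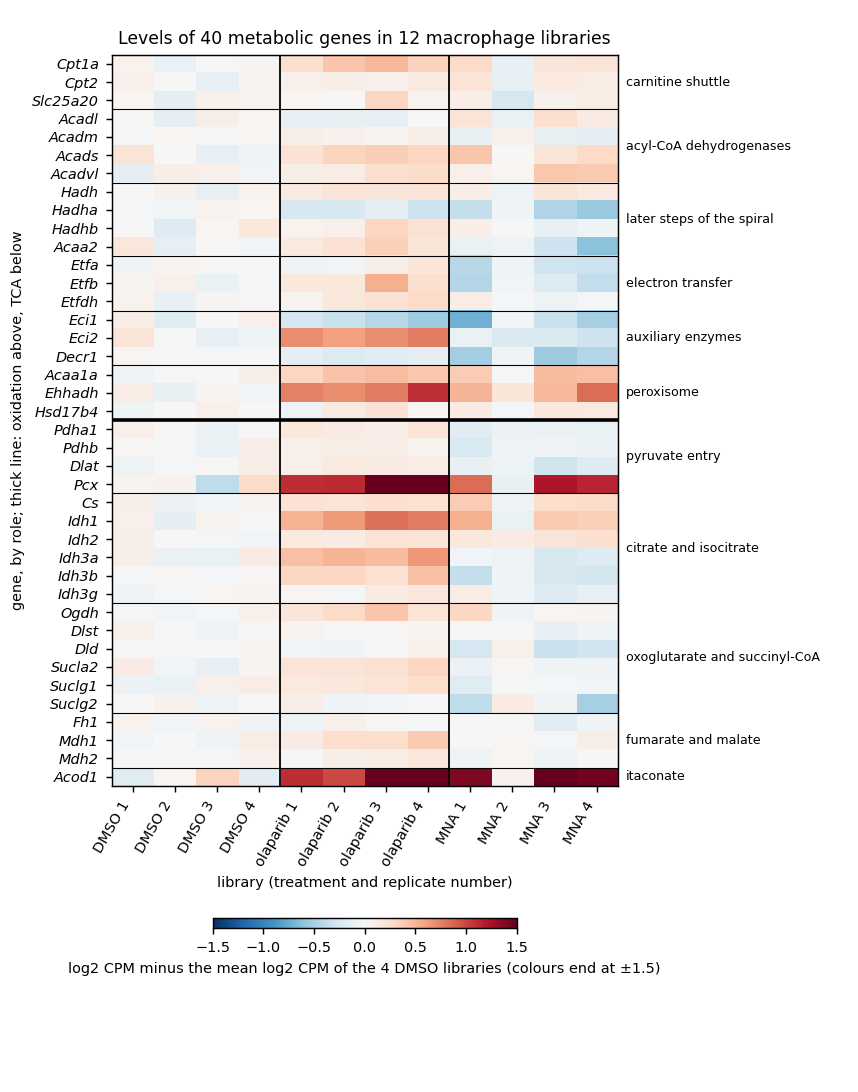
Heat map of the 40 genes (rows, by role) in the 12 libraries (columns), where color is log2 CPM minus the mean log2 CPM of the 4 DMSO libraries and ends at 1.5 in each direction. The olaparib libraries are mostly red, MNA replicate 2 is pale like the DMSO libraries, and Pcx and Acod1 are the darkest rows.

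**Figure D2:**
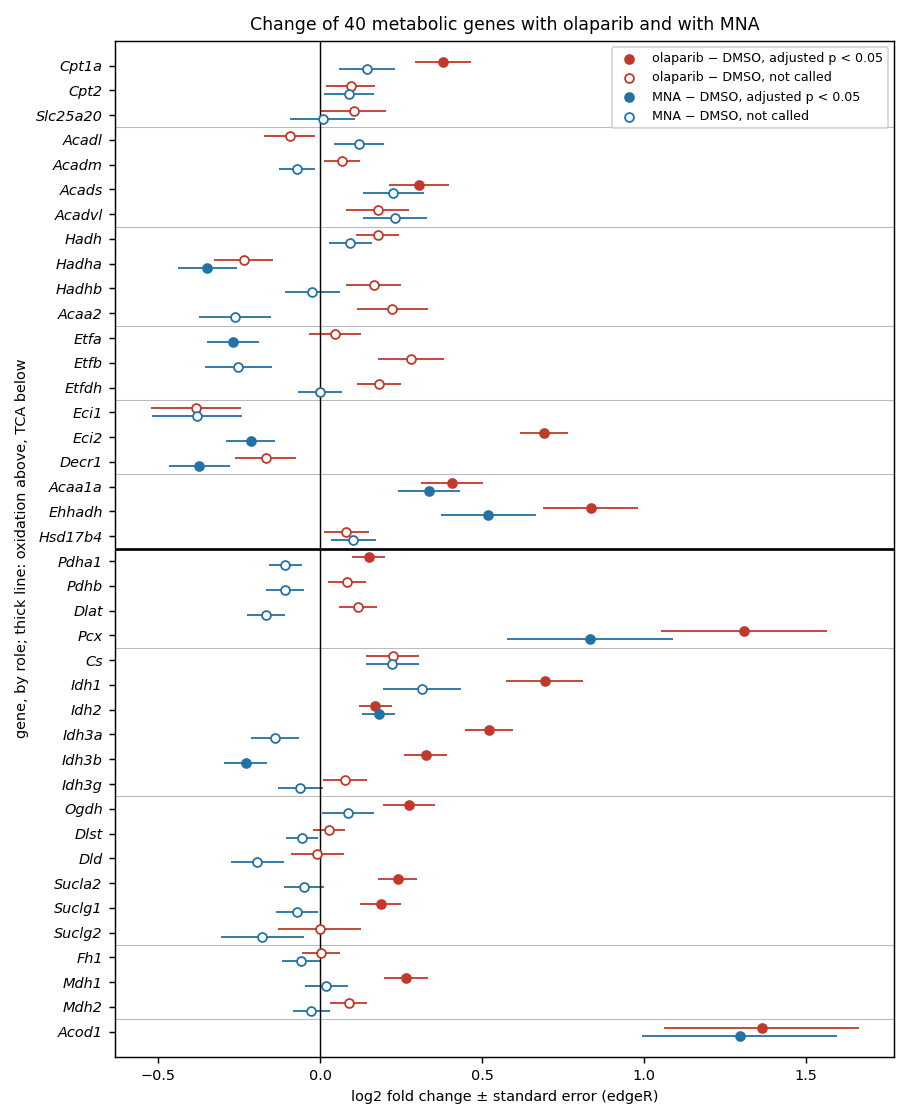
Log2 fold change (horizontal axis) of each gene with olaparib (red) and with MNA (blue) against DMSO, with bars for the standard error and filled symbols for adjusted p under 0.05. The filled red symbols are the 16 up-regulated genes, and the filled blue symbols lie on both sides of 0, 5 on each.

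Of the carnitine shuttle, Cpt1a rose with olaparib, and the other 2 genes were not called in any comparison. Cpt1a (ENSMUSG00000024900, chromosome 19, 3322334 to 3385733 on GRCm38) encodes the outer-membrane transferase that commits long-chain fatty acids to oxidation. It measured 117, 105, 112 and 116 CPM in DMSO replicates 1 to 4, 133, 150, 159 and 143 CPM with olaparib, and 138, 104, 127 and 129 CPM with MNA. Every olaparib library lay above every DMSO library, and MNA replicate 2 lay below them all. The log2 fold change with olaparib was 0.38 (SE 0.09, adjusted p = 0.00864). With MNA it was 0.14 (SE 0.09, adjusted p = 0.211), and 0.22 without MNA replicate 2 (adjusted p = 0.014). Cpt2, the inner-membrane transferase, ranged from 22.2 to 27.8 CPM over all libraries, and Slc25a20, the carrier between them, from 17.9 to 26.7 CPM.

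Among the 4 acyl-CoA dehydrogenases, which take the first electrons from acyl chains of different lengths, only Acads was called, with olaparib. Acads (ENSMUSG00000029545, chromosome 5, 115110299 to 115119346), the short-chain enzyme, measured 56.2, 48.6, 44.8 and 46.9 CPM with DMSO, 56.7, 61.5, 63.1 and 61.3 CPM with olaparib and 65.2, 48.7, 55.5 and 60.1 CPM with MNA. The lowest olaparib library lay just above the highest DMSO library. Its log2 fold change with olaparib was 0.30 (SE 0.09, adjusted p = 0.0314), and omitting any 1 of 6 libraries (DMSO replicates 2, 3 and 4 and olaparib replicates 2, 3 and 4) lost the call, the adjusted p being 0.0896 at most. Acadl, the long-chain enzyme, had a log2 difference of -0.21 between olaparib and MNA (SE 0.08, adjusted p = 0.0692), and -0.28 without MNA replicate 2 (adjusted p = 0.00202). Without that library all 4 dehydrogenases were called with MNA: Acadl (log2 fold change 0.19, adjusted p = 0.019), Acads (0.30, adjusted p = 0.00567) and Acadvl (0.29, adjusted p = 0.0141) were higher than with DMSO, and Acadm, the medium-chain enzyme, was lower (-0.13, adjusted p = 0.0269). Of all tested genes, 27.2% rose and 26.9% fell with MNA without that library. Acadm was then also higher with olaparib than with MNA (0.19, adjusted p = 0.00318). Acadvl, the very long-chain enzyme, shares 33.2% of its 31-base words with Dvl2, which overlaps it on the opposite strand, and its value is uncertain for that reason.

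The later steps of the spiral are carried out on long chains by the trifunctional protein, whose alpha subunit is encoded by Hadha and whose beta subunit by Hadhb, and on shorter chains by Hadh and Acaa2. Hadha (ENSMUSG00000025745, chromosome 5, 30118304 to 30155162) measured 232, 229, 244 and 240 CPM with DMSO, 198, 199, 215 and 190 CPM with olaparib and 184, 225, 172 and 160 CPM with MNA. All 8 treated libraries lay below all 4 DMSO libraries, MNA replicate 2 nearest to them. Its log2 fold change was -0.35 with MNA (SE 0.09, adjusted p = 0.0219) and -0.24 with olaparib (SE 0.09, adjusted p = 0.0718, and 0.00444 without MNA replicate 2). Hadha was no longer called with MNA when DMSO replicate 3 or 4, or MNA replicate 1, 3 or 4, was omitted (adjusted p 0.0706 at most). Between olaparib and MNA its log2 difference was 0.11 (adjusted p = 0.416), and 0.22 without MNA replicate 2 (adjusted p = 0.0121).

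Hadhb (ENSMUSG00000059447, chromosome 5, 30155248 to 30184593) is transcribed away from Hadha across the stretch printed above. It ranged from 77.3 to 98.6 CPM with DMSO, 91.8 to 110 CPM with olaparib and 81.6 to 94.5 CPM with MNA, and was not called in any comparison. Its log2 fold change was 0.17 with olaparib (SE 0.08, adjusted p = 0.16). Hadhb shares 23.7% of its 31-base words with other genes, most with Gm13910. The ratio of Hadhb to Hadha per kilobase was 0.663 to 0.805 with DMSO, 0.912 to 1.06 with olaparib, 0.767 in MNA replicate 2 and 0.93 to 1.03 in the other MNA libraries. The ratio was thus higher in every olaparib library than in every DMSO library, a description of a pair chosen after its values were seen. Acaa2, the last enzyme of the spiral, was higher with olaparib than with MNA (log2 0.49, SE 0.11, adjusted p = 0.00934), and its log2 fold change with MNA passed without MNA replicate 2 (-0.33, adjusted p = 0.0152). Hadh, the short-chain hydroxyacyl-CoA dehydrogenase, had a log2 fold change of 0.18 with olaparib (SE 0.07, adjusted p = 0.0672, and 0.0146 without MNA replicate 2), and one of 0.14 with MNA without that library (adjusted p = 0.0426).

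Electrons from the dehydrogenases pass through the electron transfer flavoprotein, whose 2 subunits are encoded by Etfa and Etfb, to its oxidoreductase Etfdh. Etfa (ENSMUSG00000032314, chromosome 9, 55454508 to 55512243) measured 89.5, 96.6, 95.1 and 94.3 CPM with DMSO, 89.9, 91.2, 100 and 107 CPM with olaparib and 70.2, 90.1, 76.3 and 75.2 CPM with MNA. It fell with MNA (log2 fold change -0.27, SE 0.08, adjusted p = 0.0309), where MNA replicate 2 alone lay within the DMSO range. Omitting any 1 of 6 libraries (DMSO replicates 2, 3 and 4 and MNA replicates 1, 3 and 4) lost that call (adjusted p 0.0902 at most). Etfa was also higher with olaparib than with MNA (log2 0.31, SE 0.08, adjusted p = 0.0166), a call lost without olaparib replicate 4 (adjusted p = 0.0527).

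Etfb (ENSMUSG00000004610, chromosome 7, 43444083 to 43457800) measured 44.9, 45.9, 40.8 and 43 CPM with DMSO, 48.6, 48.6, 63.1 and 51.7 CPM with olaparib and 32.2, 42.3, 38.1 and 33.7 CPM with MNA. Every olaparib library lay above every DMSO and MNA library. The log2 difference between olaparib and MNA was 0.53 (SE 0.10, adjusted p = 0.00374). Against DMSO it was 0.28 with olaparib (adjusted p = 0.0587) and -0.25 with MNA (adjusted p = 0.0772), and both passed without MNA replicate 2 (adjusted p = 0.016 and 0.00801). Etfb shares 49.9% of its 31-base words with other genes, most with Gm45233, which overlaps it on the same strand. Etfdh was not called with all libraries, and its log2 fold change of 0.18 with olaparib (adjusted p = 0.0637) passed without MNA replicate 2 (adjusted p = 0.037).

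The auxiliary enzymes prepare unsaturated chains for the spiral by moving or removing double bonds. Eci2 showed the clearest contrast of all oxidation genes. Eci2 (ENSMUSG00000021417, chromosome 13, 34977748 to 35027096), an enoyl-CoA isomerase found in mitochondria and peroxisomes, measured 36, 31.4, 29.1 and 30.3 CPM with DMSO, 51.2, 48.6, 51.3 and 53.6 CPM with olaparib and 29.4, 27.1, 27.2 and 25.5 CPM with MNA. All 4 olaparib libraries lay far above the other 8, and the MNA libraries overlapped the DMSO libraries only through MNA replicate 1 and DMSO replicate 3. It rose with olaparib (log2 fold change 0.69, SE 0.07, adjusted p = 0.000125) and differed between olaparib and MNA by 0.91 (SE 0.07, adjusted p = 1.8e-05). Its fall with MNA was small (log2 fold change -0.22, SE 0.07, adjusted p = 0.0489) and was lost in 15 of 20 alternative fits. Eci2 shares 17.3% of its 31-base words with other genes.

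Eci1, the mitochondrial isomerase of the same family, lay on the other side of DMSO with olaparib. It ranged from 8.64 to 10.5 CPM with DMSO, 6.76 to 8.27 CPM with olaparib and 5.96 to 9.53 CPM with MNA. Its log2 fold change of -0.38 with olaparib (SE 0.14, adjusted p = 0.0582) passed without MNA replicate 2 (adjusted p = 0.0119), and that of -0.38 with MNA (SE 0.14, adjusted p = 0.057) likewise (adjusted p = 0.00266). The ratio of Eci2 to Eci1 per kilobase was 1.91 to 2.37 with DMSO, 4.03 to 5.17 with olaparib and 1.85 to 3.22 with MNA. The olaparib ratios were therefore above all others, again in a pair chosen after its values were seen.

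Decr1 (ENSMUSG00000028223, chromosome 4, 15917240 to 15945507), the dienoyl-CoA reductase, measured 39.3, 38.6, 37.9 and 38.4 CPM with DMSO, 34.8, 33.5, 33.9 and 35.1 CPM with olaparib and 26.8, 37.2, 26.4 and 28.5 CPM with MNA. The DMSO libraries lay within a narrow band and all 8 treated libraries lay below it. It fell with MNA (log2 fold change -0.37, SE 0.10, adjusted p = 0.0202), and more so without MNA replicate 2 (-0.50, adjusted p = 3.72e-06). Decr1 was no longer called with MNA when DMSO replicate 2, or MNA replicate 1, 3 or 4, was omitted (adjusted p 0.0658 at most). With olaparib its log2 fold change was -0.17 (SE 0.09, adjusted p = 0.2, and 0.0126 without MNA replicate 2). Olaparib and MNA differed by 0.20 (adjusted p = 0.146), and by 0.33 without MNA replicate 2 (adjusted p = 0.000248).

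In the peroxisome, which shortens very long and branched chains, 2 of the 3 genes rose with each treatment. Of all tested genes, 14.3% rose with olaparib and 16.3% with MNA. Acaa1a (ENSMUSG00000036138, chromosome 9, 119339676 to 119350299), a peroxisomal thiolase, measured 81.5, 83.4, 85.3 and 90.4 CPM with DMSO, 106, 114, 118 and 113 CPM with olaparib and 111, 83.5, 119 and 116 CPM with MNA. The 7 treated libraries other than MNA replicate 2 lay above all DMSO libraries. The log2 fold changes were 0.41 with olaparib (SE 0.10, adjusted p = 0.0101) and 0.33 with MNA (SE 0.10, adjusted p = 0.0269). Acaa1a shares 16.9% of its 31-base words with its paralog Acaa1b and overlaps Myd88 on the opposite strand in 6.57% of its exon bases.

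Ehhadh (ENSMUSG00000022853, chromosome 16, 21761287 to 21787807), the peroxisomal bifunctional enzyme, measured 4.59, 3.96, 4.39 and 4.13 CPM with DMSO, 7.17, 6.92, 7.24 and 9.09 CPM with olaparib and 6.05, 4.84, 5.98 and 7.6 CPM with MNA. All treated libraries lay above all DMSO libraries. The log2 fold changes were 0.83 with olaparib (SE 0.15, adjusted p = 0.00255) and 0.52 with MNA (SE 0.15, adjusted p = 0.0267). The MNA calls of Acaa1a and Ehhadh were lost without MNA replicate 1, 3 or 4 and without DMSO replicate 2 or 3, and also without DMSO replicate 1 for Acaa1a and replicate 4 for Ehhadh, the adjusted p being 0.0865 at most. Hsd17b4, the other peroxisomal bifunctional enzyme, ranged from 122 to 150 CPM and was not called.

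Pyruvate enters the cycle as acetyl-CoA through the pyruvate dehydrogenase complex or as oxaloacetate through pyruvate carboxylase, encoded by Pcx. Pcx (ENSMUSG00000024892, chromosome 19, 4510472 to 4621752) had the lowest level of the 40 genes and the second largest rise with olaparib. It measured 2.77, 2.82, 2.08 and 3.27 CPM with DMSO, 5.83, 5.85, 7.57 and 7.87 CPM with olaparib and 4.81, 2.51, 6.25 and 5.95 CPM with MNA. All olaparib libraries and 3 of the MNA libraries lay above all DMSO libraries, and MNA replicate 2 lay among them. The log2 fold change was 1.31 with olaparib (SE 0.26, adjusted p = 0.00418) and 0.83 with MNA (SE 0.26, adjusted p = 0.0341, and 1.05 and 0.000226 without MNA replicate 2). Omitting any 1 of 7 other libraries (each DMSO library and MNA replicates 1, 3 and 4) lost the MNA call (adjusted p 0.104 at most). The difference between the treatments of 0.48 (95% interval -0.01 to 0.97, adjusted p = 0.196) was not called.

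Pdha1 (ENSMUSG00000031299, chromosome X, 160122209 to 160138413), the alpha subunit of pyruvate dehydrogenase, measured 69.4, 66.8, 62 and 65.9 CPM with DMSO, 73.8, 72.1, 70.6 and 76.3 CPM with olaparib and 59.2, 62.2, 61.8 and 61.7 CPM with MNA. Its groups were close, with olaparib above the others in every library. It was higher with olaparib than with MNA by 0.26 (SE 0.05, adjusted p = 0.00482). Against DMSO its rise of 0.15 (SE 0.05, adjusted p = 0.0496) was lost in 12 of 20 alternative fits, the fit with the replicate number as a block among them (adjusted p = 0.0648). Dlat (0.28, adjusted p = 0.00606) and Pdhb (0.19, adjusted p = 0.0353), 2 other subunits of the complex, were also higher with olaparib than with MNA. Dlat was lower with MNA than with DMSO without MNA replicate 2 (-0.20, adjusted p = 0.00826). Omitting any 1 of 7 libraries (each olaparib library and MNA replicates 1, 3 and 4) lost the call of Pdhb (adjusted p 0.0833 at most), as did the replicate block (0.0538). Pdha1 shares 15.8% of its 31-base words with other genes, most with Map3k15 on the opposite strand, and Pdhb 17.9%.

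At citrate and isocitrate, olaparib raised 4 of 6 genes, cytosolic Idh1 among them, where it raised 14.3% of all tested genes. The NAD-dependent isocitrate dehydrogenase of the cycle is made of subunits encoded by Idh3a, Idh3b and Idh3g. Idh3a (ENSMUSG00000032279, chromosome 9, 54586334 to 54604661), the catalytic subunit, measured 50.2, 44.2, 44.2 and 51.4 CPM with DMSO, 64.8, 67.6, 66 and 74.4 CPM with olaparib and 45.9, 45, 40.2 and 41.4 CPM with MNA. Its olaparib libraries stood clear of the other 8. The log2 fold change with olaparib was 0.52 (SE 0.07, adjusted p = 0.000767) and the difference between olaparib and MNA was 0.66 (SE 0.07, adjusted p = 0.000139).

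Idh3b (ENSMUSG00000027406, chromosome 2, 130279309 to 130284547) measured 107, 110, 107 and 110 CPM with DMSO, 135, 135, 127 and 147 CPM with olaparib and 84.5, 104, 91.7 and 89.9 CPM with MNA. The 3 groups did not overlap: olaparib was highest, DMSO lay between and MNA was lowest, with MNA replicate 2 nearest to DMSO. It rose with olaparib by 0.33 (SE 0.07, adjusted p = 0.00533), fell with MNA (log2 fold change -0.23, SE 0.07, adjusted p = 0.0286) and differed between the treatments by 0.56 (SE 0.07, adjusted p = 0.000215). Omitting any 1 of DMSO replicates 2, 3 and 4 and MNA replicates 1, 3 and 4 lost the MNA call (adjusted p 0.084 at most). Idh3g, a regulatory subunit, ranged from 64.8 to 83 CPM over all libraries and was not called in any comparison. The ratio of Idh3a to Idh3g per kilobase was 0.324 to 0.392 with DMSO, 0.457 to 0.512 with olaparib and 0.32 to 0.352 with MNA, so that olaparib alone stood above the DMSO range in this pair, which was chosen after its values were seen.

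The NADP-dependent enzymes Idh1, in the cytosol, and Idh2, in the mitochondrion, also rose with olaparib. Idh1 (ENSMUSG00000025950, chromosome 1, 65158616 to 65186500) measured 168, 143, 165 and 160 CPM with DMSO, 229, 247, 281 and 271 CPM with olaparib and 231, 148, 209 and 203 CPM with MNA. Every olaparib library exceeded every DMSO library, as did the MNA libraries other than MNA replicate 2. The log2 fold change was 0.69 with olaparib (SE 0.12, adjusted p = 0.00226). It was 0.31 with MNA (SE 0.12, adjusted p = 0.064), and 0.43 without MNA replicate 2 (adjusted p = 0.000518). With the replicate block the MNA value passed (adjusted p = 0.0469). Olaparib exceeded MNA by 0.38 (SE 0.12, adjusted p = 0.0404), a call lost in 9 of 20 alternative fits, among them those without DMSO replicate 1, 3 or 4, olaparib replicate 2, 3 or 4, or MNA replicate 3 or 4 (adjusted p 0.106 at most).

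Idh2 (ENSMUSG00000030541, chromosome 7, 80094846 to 80115392) measured 64.5, 60.5, 59.5 and 58.9 CPM with DMSO, 67.3, 66.2, 69.9 and 70.4 CPM with olaparib and 67.9, 66.5, 69.3 and 72 CPM with MNA. Both treatments lay above DMSO in every library, by about the same small amount. The log2 fold changes were 0.17 with olaparib (SE 0.05, adjusted p = 0.0292) and 0.18 with MNA (SE 0.05, adjusted p = 0.0268). Both calls were lost without DMSO replicate 2, 3 or 4, the olaparib call also without olaparib replicate 3 or 4 and the MNA call without MNA replicate 1, 3 or 4, the adjusted p being 0.0836 at most. Cs, citrate synthase, had a log2 fold change of 0.22 with each treatment (adjusted p = 0.0611 with olaparib and 0.0591 with MNA), which passed with the replicate block (adjusted p = 0.0409 and 0.0438) and without MNA replicate 2 (0.00418 and 0.000533).

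From oxoglutarate to succinate, olaparib raised Ogdh, which encodes the first subunit of the oxoglutarate dehydrogenase complex, and the succinyl-CoA ligase genes Sucla2 and Suclg1. Their log2 fold changes were 0.27 (SE 0.08, adjusted p = 0.0274), 0.24 (SE 0.06, adjusted p = 0.0145) and 0.19 (SE 0.06, adjusted p = 0.0462). The call of Ogdh was lost without any 1 of 5 libraries (DMSO replicates 1, 2 and 3 and olaparib replicates 2 and 3) and that of Suclg1 without any 1 of 9 (DMSO replicates 1, 2 and 3, each olaparib library and MNA replicates 3 and 4), the adjusted p being 0.129 at most. Sucla2 (0.29, adjusted p = 0.00645) and Suclg1 (0.26, adjusted p = 0.0137) were also higher with olaparib than with MNA. Suclg2, the GTP-specific partner of Suclg1, was not called with all libraries, and its log2 fold change of -0.30 with MNA passed without MNA replicate 2 (adjusted p = 0.0342), as did its difference of 0.30 between olaparib and MNA (adjusted p = 0.0453). Of its 31-base words, 20.7% also occur in other genes, most in Gm15163. Dlst and Dld, the other subunits of the complex, were not called with all libraries, and without MNA replicate 2 Dld was lower with MNA than with DMSO (log2 fold change -0.30, adjusted p = 0.00036) and with olaparib (by 0.29, adjusted p = 0.000745).

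Of the 3 genes listed for fumarate and malate, Mdh1 encodes a cytosolic enzyme and is not among the core cycle genes counted below. Mdh1 rose with olaparib (log2 fold change 0.26, SE 0.07, adjusted p = 0.0138) and was higher than with MNA by 0.25 (adjusted p = 0.0212), a call lost in 6 of 20 alternative fits, among them those without olaparib replicate 2 or 4 or MNA replicate 1 or 3 (adjusted p 0.0703 at most). The core cycle genes here, mitochondrial Mdh2 and Fh1, fumarate hydratase, were not called in any comparison.

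Acod1 (ENSMUSG00000022126, chromosome 14, 103046977 to 103056573), which makes itaconate from cis-aconitate and is known as a gene of inflammatory macrophages, had the largest rise of the 40 genes with each treatment. It measured 10.2, 11.8, 14.5 and 10.3 CPM with DMSO, 25, 23.1, 33.8 and 38.6 CPM with olaparib and 30.5, 12.1, 40.8 and 31.6 CPM with MNA. All olaparib libraries and all MNA libraries except replicate 2 lay above the highest DMSO library. The fold change with olaparib was 2.57 (log2 1.36, SE 0.30, adjusted p = 0.0073) and that with MNA 2.45 (log2 1.29, SE 0.30, adjusted p = 0.0167). Without MNA replicate 2 the log2 fold change with MNA was 1.55 (adjusted p = 6.91e-06), and the MNA call was lost without MNA replicate 3 or 4 (adjusted p 0.0569 at most). Between the treatments it differed by 0.07 (95% interval -0.50 to 0.64, adjusted p = 0.897), an interval that leaves room for a sizable difference in either direction, and this value turned negative in 3 alternative fits.

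**Figure D3:**
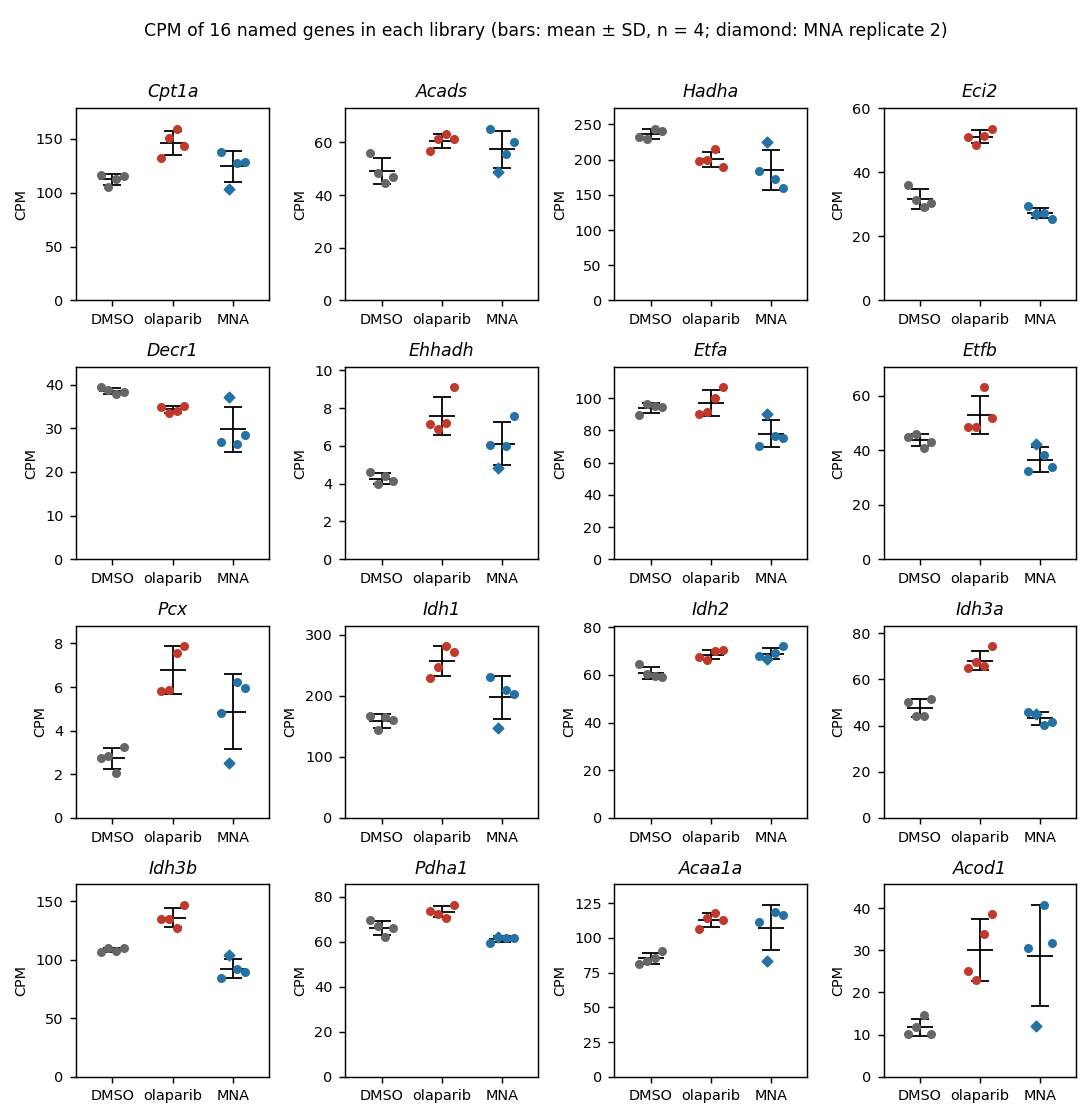
CPM (vertical axes, from 0) of 16 genes in each library by group, with circles for libraries, a diamond for MNA replicate 2 and bars for mean ± SD over 4 libraries. Idh3a, Idh3b and Eci2 show olaparib above the other groups, and Acod1 and Pcx show both treatments above DMSO except for the diamond.

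**Figure D4:**
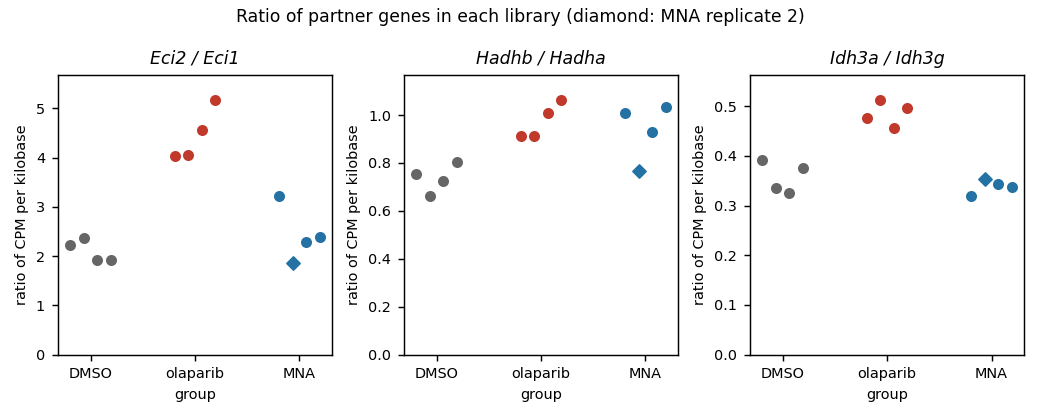
Ratio of CPM per kilobase (vertical axes, from 0) of Eci2 to Eci1, Hadhb to Hadha and Idh3a to Idh3g in each library by group. The olaparib libraries lie above the DMSO libraries in each panel, with Eci2 to Eci1 at 4.03 to 5.17 against 1.91 to 2.37. Of the other pairs computed and not drawn, Idh3b to Idh3g also lay higher (1.31 to 1.52 against 1.17 to 1.24). Etfb to Etfdh (2.67 to 3.39 against 2.48 to 3.10) and Sucla2 to Suclg2 (9.15 to 10.6 against 7.85 to 9.26) overlapped.

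Set side by side, the oxidation and TCA genes with olaparib had 5 and 11 genes called, all up-regulated, and without MNA replicate 2 they had 11 (8 up-regulated and 3 down-regulated) and 12 (all up-regulated). With olaparib the median of the 20 oxidation genes in single libraries was 0.08 to 0.23 above the DMSO mean on the log2 scale, and that of the 20 TCA genes 0.14 to 0.21. With MNA the corresponding medians were -0.05 to 0.10 and -0.06 to -0.03, and with DMSO -0.02 to 0.03 and -0.03 to 0.05. Summed over the genes, TCA levels were 1905 to 2027 CPM with DMSO, 2195 to 2389 with olaparib and 1933 to 2068 with MNA, and oxidation levels 1239.7 to 1298, 1314 to 1465 and 1222 to 1268 CPM. The summed level of both lists was thus highest with olaparib in every library. With olaparib, 4 of 20 oxidation genes and 2 of 20 TCA genes had a negative fold change, where 6360 of 12849 tested genes did. With MNA these counts were 10 and 13, where 6421 of 12849 tested genes had one. Restricted to 17 mitochondrial oxidation genes and 13 genes of the core cycle, the counts called with olaparib were 3 and 6, all up-regulated, and with MNA 4 oxidation genes fell and 0 rose (2 at an unadjusted p under 0.05 in edgeR) while 1 cycle gene rose and 1 fell. Without MNA replicate 2 these counts were 6 up-regulated and 3 down-regulated oxidation genes and 7 up-regulated cycle genes with olaparib, and 5 up-regulated and 8 down-regulated oxidation genes and 2 and 3 cycle genes with MNA. Of all tested genes, 14.3% rose and 12.8% fell with olaparib, and 16.3% rose and 12.3% fell with MNA. Without MNA replicate 2 these shares were 22.5% and 21.2% with olaparib, and 27.2% and 26.9% with MNA. Several of the counts, such as 3 of 17 oxidation genes with olaparib, thus lay near these shares. The difference between the lists was not tested.

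**Figure D5:**
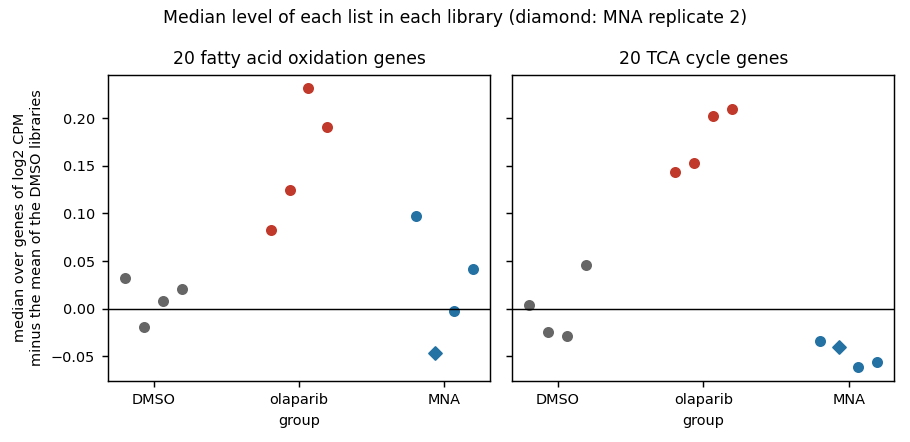
Median over the 20 oxidation genes (left) and the 20 TCA genes (right) of log2 CPM minus the mean of the DMSO libraries (vertical axis), 1 point for each library by group. The 4 olaparib libraries lie above the 4 DMSO libraries in both panels, at 0.08 to 0.23 and 0.14 to 0.21, and the MNA libraries lie at -0.06 to -0.03 for the TCA genes.

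Genes around the 2 routes were read from 3 further lists, whose counts stand beside the shares of all tested genes given above (14.3% up and 12.8% down with olaparib, 16.3% up and 12.3% down with MNA). In percent of the tested genes of each list, the calls with olaparib were 37.5 up and 9.38 down for fatty acid handling, 31 up and 13.8 down for neighbors of the cycle and 13.3 up and 40 down for regulators. With MNA they were 15.6 up and 15.6 down, 13.8 up and 20.7 down, and 0 up and 40 down. Without MNA replicate 2, 27.2% of all tested genes rose and 26.9% fell with MNA, and 22.5% and 21.2% with olaparib. In percent of each list, the MNA calls were then 28.1 up and 34.4 down, 31 up and 34.5 down, and 13.3 up and 53.3 down. The olaparib calls were then 46.9 up and 12.5 down, 37.9 up and 20.7 down, and 20 up and 46.7 down. Among genes of fatty acid handling (activation, peroxisomal import and oxidation, odd chains and ketones), 32 of 34 were tested, 12 rose and 3 fell with olaparib, 5 rose and 5 fell with MNA (9 and 11 without MNA replicate 2), and their median log2 fold changes were 0.21 and -0.04. Among those with the smallest p for olaparib were Acsl3, an acyl-CoA synthetase, which fell from 62.2 ± 11.4 to 34.1 ± 2.94 CPM (SD, n = 4), a log2 change of -0.87 (adjusted p = 0.00053), and Abcd2, a peroxisomal fatty acid transporter, which rose (log2 0.73, adjusted p = 0.0011, from 46.2 ± 2.66 to 76.7 ± 5.82 CPM). With MNA, Abcd2 was lower at 35.2 ± 6.31 CPM (adjusted p = 0.027 for a log2 fold change of -0.39), and Acsl3 was not called. With olaparib Abcd2 rose, as did the peroxisomal enzymes Acaa1a and Ehhadh, and with MNA Abcd2 fell while these enzymes rose.

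Among neighbors of the cycle (succinate dehydrogenase, pyruvate dehydrogenase kinases, carriers, and malic and glutamate enzymes), 29 of 32 were tested, 9 rose and 4 fell with olaparib (11 and 6 without MNA replicate 2) and 4 rose and 6 fell with MNA (9 and 10 without it), with median log2 fold changes of 0.05 and -0.03. Sdha, the flavoprotein subunit of succinate dehydrogenase, rose from 286 ± 7.09 to 379 ± 21.5 CPM with olaparib (0.41, adjusted p = 0.000702). Sdhd, a membrane subunit, rose from 125 ± 3.53 to 163 ± 10 CPM (0.39, adjusted p = 0.00249). The remaining subunits, named after their values were seen, rose as well: Sdhc by 0.31 (adjusted p = 0.00372) and Sdhb by 0.29 (adjusted p = 0.0283). None of these 4 genes was called with MNA, where Sdha was at 286 ± 9.18 CPM and Sdhd at 121 ± 10 CPM, and all 4 were higher with olaparib than with MNA (adjusted p from 0.000541 for Sdha to 0.00923 for Sdhc).

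Of 17 regulators of oxidative genes, 15 were tested, of which 2 rose and 6 fell with olaparib and 0 rose and 6 fell with MNA. Without MNA replicate 2, 2 rose and 8 fell with MNA, and with all libraries 0 of the 15 lay higher at an unadjusted p under 0.05 and DESeq2 called 0 higher. Rxra, a nuclear receptor that pairs with PPARs, rose from 52.1 ± 2.6 to 77 ± 6.07 CPM with olaparib, by 0.56 on the log2 scale (adjusted p = 0.000845), and fell to 38.8 ± 4.06 CPM with MNA (-0.42, adjusted p = 0.0142). Pparg, a lipid-sensing receptor of alternatively activated macrophages, fell from 211 ± 43.2 to 95.7 ± 21.6 CPM with olaparib (-1.14, adjusted p = 0.00352) and to 137 ± 40.8 CPM with MNA (-0.62, adjusted p = 0.0485). Esrra, the estrogen-related receptor alpha, rose from 48.8 ± 4.29 to 62.4 ± 4.14 CPM with olaparib (0.36, adjusted p = 0.0117) and was not called with MNA (0.12, adjusted p = 0.303). Rxra and Esrra were the 2 regulators that rose with olaparib, and Pparg was among the 6 that fell, so that the named genes do not mirror the list. In these lists, too, MNA replicate 2 lay nearer to DMSO than the other MNA libraries for Rxra (44.7 CPM) and Pparg (191 CPM).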

How the data were processed

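RNA of BMDMs was measured in 12 libraries, 4 for each of DMSO, olaparib and MNA, grouped by the titles and treatment labels. The authors prepared stranded mRNA libraries, sequenced single-end reads, aligned them to GRCm38.p5 with STAR 2.5.2b and counted reads per Ensembl gene, and the deposited values are raw counts without normalization. Which strand column of STAR was deposited is not given in the sources used here. The 4 libraries of a group may be 4 donor mice, as a legend gives 4 donors, but no source ties a library to a mouse, so that the p-values measure the spread between these libraries.

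Gene names, positions and lengths came from GENCODE vM21 (GRCm38), which held 34490 of the 35275 IDs, and promoter windows from RefSeq (GRCm38.p6). In all 12 libraries 13428 genes had 0 counts. Genes passing filterByExpr of edgeR (minimum count 10, minimum total 15) were kept, 12849 in number. A single model with the group as its term was fitted to the 12 libraries after TMM scaling, and groups were compared by the quasi-likelihood test of edgeR 4.0.16 (R 4.3.3). The standard error is the log2 fold change divided by the square root of F. The 95% intervals are 1.96 standard errors to each side, a normal approximation that is narrower than the quasi-likelihood test implies. For Acaa2 with olaparib, such an interval leaves out 0 (lower end 0.00711) where that test gave an unadjusted p of 0.0653. The common dispersion was 0.0333. Scripts were tested on simulated counts, and written in Python 3.11.15 and R. Overlap with other genes was the share of a gene's 31-base words found in transcripts of other genes on either strand, and 9 of the 40 genes were over 10%.

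The 40 genes, their roles, the 3 lists of related genes and the cell markers were chosen with earlier results of these data known. Values in each library are given for the called genes with the smallest p (up to 5 of each list against DMSO for each treatment, and 5 for olaparib against MNA), for Acod1 and Cpt1a, and means from each related list for the 3 genes with the smallest p with olaparib, of which 2 genes are not reported here. A gene named outside this rule is said to be so, or is given by its range or fold change. Alternatives were DESeq2 1.42.0, RLE and upper-quartile normalization, no filter, a minimum mean of 50 counts, a block for the replicate number (also without MNA replicate 2), 2 groups alone, a threshold of 0.01, narrower lists, and each library left out. For libraries with the same number, the deviations of olaparib and DMSO libraries from their group's mean were correlated across genes (r = 0.227, 0.172, 0.225 and 0.408). Between libraries with different numbers r was 0.0981 at most. The numbers may thus pair these libraries, and the main fit, which gave the calls, has no term for them. Amino acid sequences were not used here.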

Additional observations from a re-analysis of the deposited data

Results flagged for a closer look

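In 120 groups of 4 libraries (40 genes in 3 groups), 9 had 1 library whose gap to the nearest other exceeded the 95% critical value of Dixon's ratio, which chance alone exceeds in about 1 group in 20. In the carnitine shuttle these were Cpt2 in olaparib replicate 4 at 26.5 CPM (others 25.6 to 25.7), and Slc25a20 in DMSO replicate 2 at 19.4 CPM (others 22.0 to 22.5), in olaparib replicate 3 at 26.7 CPM (others 21.6 to 22.3) and in MNA replicate 2 at 17.9 CPM (others 22.5 to 23.2). Acadl lay at 60.2 CPM in olaparib replicate 4 (others 55.4 to 55.8), and Acadm at 87.7 CPM in MNA replicate 2 (others 75.5 to 77.2). Ehhadh lay at 9.09 CPM in olaparib replicate 4 (others 6.92 to 7.24). Among the TCA genes, Suclg1 lay at 54.1 CPM in MNA replicate 1 (others 59.6 to 60) and Mdh2 at 277 CPM in DMSO replicate 4 (others 259 to 261). Of the 3 such values in MNA libraries, 2 were in MNA replicate 2.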

How the results depend on the processing

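Of 39 called values of single genes, 20 stayed called in all 20 alternative fits, DESeq2 kept all 39 and the replicate block kept 37. The count of genes raised by olaparib was 16 and fell to 8 at a threshold of 0.01, and it ranged from 11 to 20 with 1 library left out. The count lowered by olaparib was 0, with 1 by DESeq2, 3 in a fit of 2 groups alone, 3 under the replicate block without MNA replicate 2, and 0 to 3 with 1 library left out. The counts raised and lowered by MNA, 5 and 5, were 0 and 0 with 2 groups alone and at a threshold of 0.01, the lowered count was 3 with no filter, both were 0 to 12 with 1 library left out, and 12 and 11 under the replicate block without MNA replicate 2. The highest counts came without MNA replicate 2, and both counts were 0 without MNA replicate 3 or 4. The count higher with olaparib than with MNA, 13, was 8 at a threshold of 0.01 and 9 to 18 with 1 library left out, and the count lower, 0, was 1 under the replicate block, 1 under the block without MNA replicate 2, and 0 to 1 with 1 library left out. The replicate block alone ended the calls of Pdha1 with olaparib and of Pdhb between the treatments (adjusted p = 0.0538), and added Cs with olaparib (0.0409), Cs and Idh1 with MNA (0.0438 and 0.0469) and Acadl between the treatments (0.0494), with no other change of a call among the 40 genes. Same-numbered libraries correlated with r = 0.242, 0.114, -0.00938 and 0.277 for MNA and DMSO and with 0.0696, 0.137, 0.131 and 0.392 for olaparib and MNA, so that 3 of 4 pairs exceeded 0.1 in each. Differently numbered libraries reached 0.153 and 0.14 in these 2 comparisons, and the numbers were not taken to pair these groups. These correlations cannot decide the question, because the MNA deviations were taken from a mean that includes MNA replicate 2. That library lay apart from the other MNA libraries, and the correlations were not computed without it. The log2 difference of Acod1 between olaparib and MNA was -0.13 under the replicate block without MNA replicate 2, -0.19 without MNA replicate 2 and -0.08 without olaparib replicate 4, with a range of -0.19 to 0.27 over all libraries left out 1 at a time, the cause of which was not tested. List medians moved by less than the spread between libraries in 124 of 126 alternatives, which were refits or narrower lists. The other 2 were both without MNA replicate 2 (TCA genes, olaparib against MNA, 0.25). The smallest change called was 0.15 on the log2 scale (Pdha1 with olaparib), while larger changes of genes with a wider spread, such as Eci1 (-0.38, SE 0.14), were not called.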
